A study of Mus musculus with 12 samples.

Results

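The 9 genes described here encode enzymes of the tricarboxylic acid (TCA) cycle and the enzyme that draws itaconate from it. They were chosen by name: Cs, Idh3a, Idh3b, Idh3g, Ogdh, Suclg1, Fh1 and Mdh2 for the cycle, and Acod1 for itaconate synthase. All 9 were found among the 56941 gene IDs of the count table, and all 9 passed the filter on low counts. RAW264.7, a transformed mouse macrophage line, had been seeded as a monolayer on porous culture inserts in complete DMEM. In 6 samples an agarose cushion and a printed weight pressed on the cells with 0.14 kPa for 24 h (compressed), and in 6 samples the agarose cushion lay on the cells without the weight (control). The cushion was thus common to both groups, and the comparison asks what the added weight changed. A single cell line stands for macrophages here, and the labels do not say whether the samples of a group were cultured separately. The p-values then reflect only how far these samples differed from one another, and that spread may be technical.

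In the TCA cycle, mitochondria oxidise the acetyl group of acetyl-CoA to carbon dioxide and pass the electrons on to the respiratory chain. Macrophages also use the cycle as a source of signals. When they meet bacterial products they induce Acod1 (also known as Irg1), whose enzyme removes a carboxyl group from the cycle intermediate cis-aconitate to make itaconate, a metabolite that inhibits succinate dehydrogenase and the growth of some bacteria. Acod1 thereby competes with the cycle's own use of aconitate, the step just before isocitrate dehydrogenase.

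Acod1 was the member with the largest difference, and RefSeq promoter windows were read for the members to show what letters lie in front of it. The sequences of Acod1 and of Cs, citrate synthase, which makes the citrate from which aconitate is formed, are shown because they are the highest-moving member and the entry enzyme of the cycle. Each is the 250 bases before the annotated start, 5′ to 3′ on the gene's strand (GRCm38.p6, Acod1 on chr14:103046762-103047011, plus strand, and Cs on chr10:128337477-128337726, plus strand). Capitals mark motif matches on either strand.

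Acod1: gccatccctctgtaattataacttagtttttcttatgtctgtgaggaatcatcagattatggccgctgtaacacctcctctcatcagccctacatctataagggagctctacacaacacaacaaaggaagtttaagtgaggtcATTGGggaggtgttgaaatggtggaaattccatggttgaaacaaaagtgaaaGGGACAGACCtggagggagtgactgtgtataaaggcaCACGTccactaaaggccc

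Cs: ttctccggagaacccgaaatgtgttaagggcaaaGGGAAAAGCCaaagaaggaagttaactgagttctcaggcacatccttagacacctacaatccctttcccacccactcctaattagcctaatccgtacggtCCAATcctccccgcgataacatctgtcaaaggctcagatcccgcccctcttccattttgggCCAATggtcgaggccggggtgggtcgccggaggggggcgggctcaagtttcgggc

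In the Acod1 window the capitals are, in order, a CCAAT box, a loose NF-kB pattern and the hypoxia response element core ACGTG. The CCAAT box and the hypoxia core are read on the minus strand. The loose NF-kB pattern, called the NF-kB pattern below, is GGGA and CC with any 4 bases between. It lies at bases -55 to -46 from the start. In the Cs window they are the NF-kB pattern and then a pair of CCAAT boxes. None of these matches overlaps another. Of 32851 RefSeq windows of the same length, 17.6% held the NF-kB pattern, 33.8% a CCAAT box and 16.6% the hypoxia core. Windows were found for 8 of the 9 members, not for Idh3a, with 6 for Ogdh and a single one for each other member. A member was counted if any of its windows held a pattern, whereas the shares above are per window. The NF-kB pattern occurred in the windows of Cs, Ogdh (in a single window), Suclg1, Fh1 and Acod1. Among these, Acod1 was higher in compressed samples and Cs and Ogdh were lower. A CCAAT box occurred in the windows of Cs, Idh3b, Ogdh, Fh1 and Acod1, and the hypoxia core in those of Idh3g, Ogdh and Acod1. The GABPA/ETS pattern CCGGAAG, held by 6.9% of all windows, occurred only in that of Idh3g among these 8 members. The interferon pattern (GAAA repeated with any 2 bases between, 3.0% of all windows), the NRF1 pattern (GCGCA and GCGC with any 1 base between, 3.7%) and the ERR pattern AAGGTCA (4.1%) had no match in the members' windows. A match is a description of the letters and not a bound site.

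The libraries held 33460807 to 39103987 counts in the compressed group and 37948795 to 40463545 in the control group. The smallest member count in any library was 3309. For Suclg1, Idh3g and Fh1 in control samples, the coefficients of variation of 1.61%, 1.25% and 1.48% were close to the counting error of 1.44%, 1.22% and 1.29%, whereas in compressed samples the coefficients of variation of the 9 members were 3.62 to 20.8%. All 8 macrophage markers examined, among them Csf1r and Adgre1, were expressed. Their summed level was 6645 to 7814 CPM (the read count scaled to a common library size) in compressed samples and 5458 to 5866 CPM in control samples, and its part in the results was not tested. Lyz2 (4204 CPM in compressed samples, 2678 CPM in control samples) carried most of the higher sum, and the markers were divided. Also higher in compressed samples were the means of Ptprc (276 against 230 CPM in control samples), Itgam (129 against 61.8 CPM) and Adgre1 (81.3 against 53.8 CPM). Csf1r (1385 against 1616 CPM in control samples), Cd68 (640 against 720 CPM) and Fcgr1 (45.0 against 59.1 CPM) had lower means in compressed samples. Spi1 was nearly level (273 against 275 CPM). The 4 T and B cell, 4 epithelial and 4 fibroblast markers all fell below the filter, and 3 of the T and B cell markers had no count at all. Of the 3 endothelial markers 1 was tested, and the sum of the 3 was 0.944 to 1.16 CPM in compressed samples and 0.553 to 1.09 CPM in control samples. Compressed replicate 6 stood apart on the second principal component, at -26.7, against 3.27 to 7.19 in the other 5 compressed libraries and -0.91 to 2.03 in the control libraries. In that library, levels shifted with transcript length, as described with the members it touches, and the fold change of each member is given with and without it. Of the called genes of other lists that are named below, all but Prodh were called in the same direction without it.

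The edgeR quasi-likelihood test called 6960 of 15001 genes (46.4%) at a threshold of 0.05 on the p adjusted by the Benjamini-Hochberg method. In compressed samples 24.5% of the genes were higher and 21.9% were lower. Scaled by library size alone, lower genes outnumbered higher ones (3079 higher and 4050 lower, against 3677 and 3283 with TMM). Among the 9 members, Acod1 was called higher and 4 cycle genes (Cs, Idh3a, Idh3g and Ogdh) were called lower, while Idh3b, Suclg1, Fh1 and Mdh2 were not called. With 46.4% of all genes called, a call by itself sets no member apart. The log2 fold changes of the 8 cycle genes had a median of -0.12, beside 0.02 over all genes tested. Without compressed replicate 6 the test called 66.0% of genes, 33.8% higher and 32.2% lower, and of the members Acod1 was higher, 7 were lower and Mdh2 was not called. Compressed and control libraries did not overlap for 5 of the 9 members (Acod1, Cs, Idh3a, Idh3g and Ogdh), beside 33.6% of all genes in either direction, and without compressed replicate 6 for 8 of the 9, beside 49.9% of all genes. The median of the 8 cycle genes was then -0.15, beside 0.00 over all genes tested. In these bulk samples, a smaller share of cells that express a gene and less RNA of it per cell cannot be told apart.

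**Figure D1:**
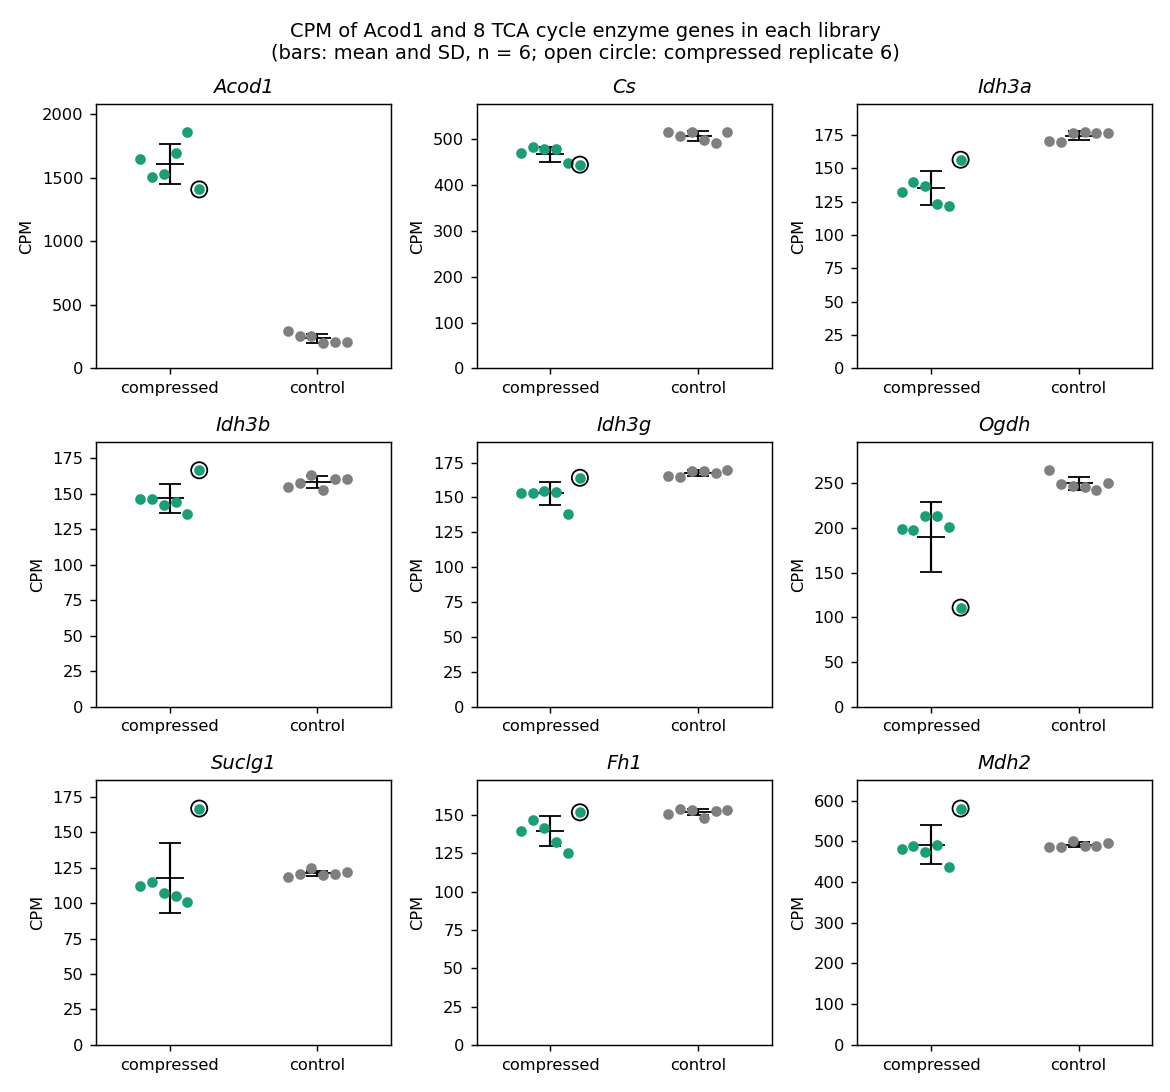
CPM of the 9 genes in each of the 6 compressed (left) and 6 control (right) libraries, with mean and SD and a circle round compressed replicate 6. Acod1 lay between 1409 and 1861 CPM in compressed samples and between 204 and 292 CPM in control samples, whereas the cycle genes moved by far less and compressed replicate 6 was the lowest compressed library for Ogdh and the highest for Suclg1.

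Acod1 was 6.82-fold higher in compressed samples. Its lowest, median and highest levels were 1409, 1589 and 1861 CPM in compressed samples, against 204, 229 and 292 CPM in control samples. Each compressed library was above each control library. The means were 1609 ± 160 CPM in compressed samples and 236 ± 36.9 CPM in control samples (SD, n = 6 each), a log2 fold change of 2.77 with a standard error of 0.11 and an adjusted p of 4.26e-10 (edgeR). Counted from the highest log2 fold change, it ranked 90 of 15001 genes. Control replicates 1 to 3 (292, 258 and 252 CPM) were above control replicates 4 to 6 (204, 205 and 205 CPM), and the difference between compressed and control samples was several times this spread. Leaving out compressed replicate 6 gave a fold change of 6.97.

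Cs condenses acetyl-CoA with oxaloacetate to citrate and so sets the entry to the cycle. Its lowest, median and highest levels were 445, 474 and 484 CPM in compressed samples, against 492, 512 and 516 CPM in control samples. All compressed libraries were below all control libraries. The log2 fold change was small, -0.12 with a standard error of 0.04 (edgeR adjusted p = 0.024). The call was at the threshold: the adjusted p was 0.05 without control replicate 1 and 0.0532 without control replicate 3, both just above it, and 0.00174 without compressed replicate 6. Cs has a close copy, Csl (91.9% identity over 1522 aligned transcript bases), but Csl had 336 counts in all libraries together, beside 219843 for Cs.

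Idh3a, Idh3b and Idh3g encode the subunits of the mitochondrial NAD-dependent isocitrate dehydrogenase, the enzyme that turns isocitrate into 2-oxoglutarate. Idh3a is the catalytic subunit and Idh3b and Idh3g are regulatory ones. Idh3a fell to a median of 134 CPM (122 to 156) in compressed samples, against 176 CPM (170 to 177) in control samples, with no overlap. Its log2 fold change was -0.37 with a standard error of 0.06 (edgeR adjusted p = 0.000159), and -0.42 without compressed replicate 6, which held the highest compressed level. Idh3g was lower by a smaller step, with a median of 154 CPM (138 to 164) in compressed samples and 168 CPM (165 to 169) in control samples. Its log2 fold change was -0.13 with a standard error of 0.04 (edgeR adjusted p = 0.0242), and the groups did not overlap, by a narrow margin between compressed replicate 6 and the lowest control. Without that replicate the log2 fold change was -0.16 (edgeR adjusted p = 0.000171). Idh3b had a median of 145 CPM (136 to 167) in compressed samples, against 159 CPM (152 to 163) in control samples. Its log2 fold change of -0.11 was not called (edgeR adjusted p = 0.0956). Compressed replicate 6, at 167 CPM, was above every control library, and without it the log2 fold change was -0.15 (edgeR adjusted p = 0.000134). Idh3b shares 5 exon bases with Nop56 on the opposite strand.

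Since the enzyme is built from the 3 subunits, their ratios within a library were compared, which removes any scaling between libraries. All 7 ratios between members were tested by an exact two-sided permutation test, and 3 of them concern these subunits. The log2 ratio of Idh3a to Idh3b was -0.12 ± 0.07 in compressed samples and 0.14 ± 0.04 in control samples (SD, n = 6 each), a difference of -0.26 (exact p = 0.00216, 0.00303 adjusted over the 7, where 0.00216 is the smallest p that 6 against 6 can give). Idh3a to Idh3g had a log2 ratio that was likewise lower, -0.18 ± 0.08 in compressed samples and 0.06 ± 0.01 in control samples, a difference of -0.24 (exact p = 0.00216, adjusted 0.00303). In each of these ratios all 6 compressed libraries were below all 6 control libraries, and without compressed replicate 6 the differences were -0.27 and -0.26. The ratio of Idh3b to Idh3g differed by 0.02 on the log2 scale and the groups overlapped (exact p = 0.39). The mRNA of the catalytic subunit was thus lower relative to each regulatory one.

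Ogdh encodes the E1 component of 2-oxoglutarate dehydrogenase, which makes succinyl-CoA from 2-oxoglutarate. Its lowest, median and highest levels were 111, 200 and 214 CPM in compressed samples, against 243, 248 and 265 CPM in control samples. All compressed libraries lay below all control libraries, and the coefficient of variation was 20.7% in compressed samples and 3.04% in control samples. The log2 fold change was -0.40 with a standard error of 0.13 (edgeR adjusted p = 0.0192). Compressed replicate 6 held the level of 111 CPM, whereas the other 5 compressed libraries held 198 to 214 CPM. Without it the log2 fold change was -0.29 with a standard error of 0.03 (edgeR adjusted p = 9.31e-08), smaller but far better resolved.

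Suclg1, the alpha subunit of succinyl-CoA ligase, acts on the product of Ogdh and conserves its energy in a nucleotide triphosphate. Its lowest, median and highest levels were 101, 110 and 167 CPM in compressed samples, against 119, 121 and 124 CPM in control samples. The highest compressed level was again that of replicate 6, and the other 5 compressed libraries (101 to 115 CPM) were all below the controls. Over all 12 libraries Suclg1 had a log2 fold change of -0.04 and was not called (edgeR adjusted p = 0.780), whereas without compressed replicate 6 it was -0.17 (edgeR adjusted p = 0.000144). Its call therefore turned on that single library. Ogdh to Suclg1 had a log2 ratio of 0.67 ± 0.63 in compressed samples and 1.05 ± 0.06 in control samples (SD, n = 6 each), a difference of -0.37 (exact permutation p = 0.0152, adjusted 0.0177). Compressed replicate 6 had a ratio of -0.59, and without it the difference was -0.12 (exact permutation p = 0.0195, adjusted 0.0227). This ratio thus kept its call without that library, but the groups overlapped with and without it. Compressed replicates 3, 4 and 5 (0.998, 1.025 and 0.994) lay within the control range of 0.989 to 1.156. Compressed replicates 1 and 2 (0.831 and 0.787) lay below it. Its call was lost when any single control library was left out, with adjusted p of 0.0657 to 0.104.

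Fh1 encodes fumarase, which hydrates fumarate to malate. Its lowest, median and highest levels were 125, 141 and 152 CPM in compressed samples, against 148, 153 and 154 CPM in control samples. The groups overlapped only through compressed replicate 6, and the log2 fold change of -0.12 was just outside the threshold (edgeR adjusted p = 0.0552). It was called when that library was left out, with a log2 fold change of -0.15 (edgeR adjusted p = 0.000768), and when compressed replicate 2 was left out (adjusted p = 0.0406). Mdh2 encodes mitochondrial malate dehydrogenase, which regenerates oxaloacetate and closes the cycle. Its lowest, median and highest levels were 438, 485 and 580 CPM in compressed samples, against 485, 488 and 502 CPM in control samples. Mdh2 had a log2 fold change of 0.00 (edgeR adjusted p = 0.982), and of -0.05 without compressed replicate 6 (edgeR adjusted p = 0.130), so no difference was resolved in either fit. Between Mdh2 and Fh1 the log2 ratio was higher, 1.81 ± 0.08 in compressed samples and 1.69 ± 0.02 in control samples (SD, n = 6 each), a difference of 0.12 with no overlap (exact permutation p = 0.00216, adjusted 0.00303), and 0.10 without compressed replicate 6.

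**Figure D2:**
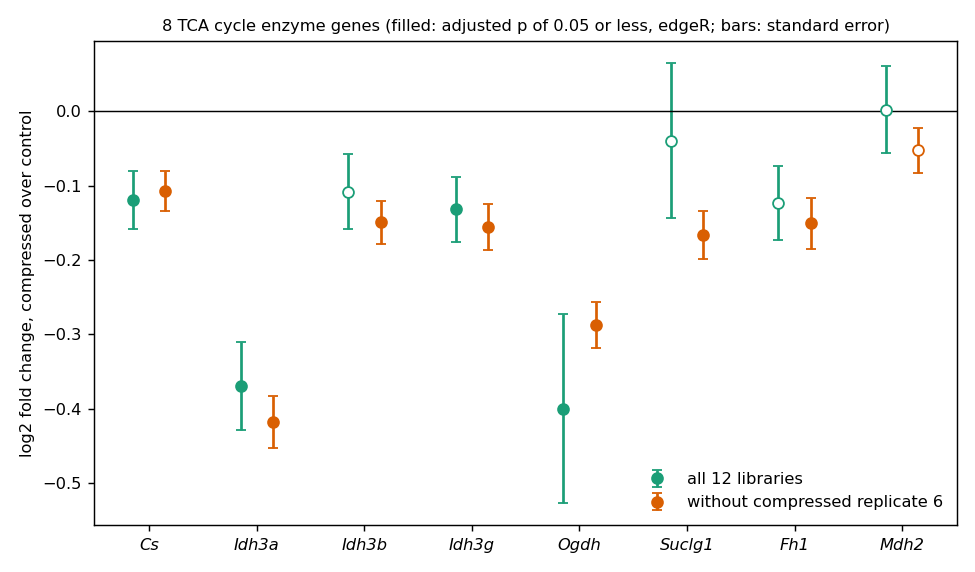
Log2 fold change, compressed over control, of the 8 cycle genes with standard errors, from all 12 libraries and from the 11 without compressed replicate 6. Filled points passed an adjusted p of 0.05 or less (edgeR), which took in 4 genes with all libraries and 7 without replicate 6, and the error bars of Ogdh and Suclg1 shrank when that library was left out.

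The level of compressed replicate 6 followed transcript length over the whole table. Over 11460 tested genes with a length, its deviation from the mean of compressed replicates 1 to 5 had a median of 0.50 on the log2 scale in the 2865 genes with the shortest principal transcripts (median 1351 bases) and of -0.65 in the 2865 with the longest (median 5837 bases). The longest member and most of the short ones followed this slope. Ogdh, with a principal transcript of 4127 bases the longest of the 9, deviated by -0.89, while Suclg1, with 1519 bases, deviated by 0.63 and Mdh2, with 1456 bases, by 0.29. Idh3g, the shortest at 1331 bases, deviated by only 0.12, less than Idh3a (2403 bases, 0.26) and Fh1 (2636 bases, 0.15). Acod1, with 2623 bases, deviated by -0.22. The mitochondrially encoded share of counts in that library was 3.00%, within the range of 2.93 to 3.41% of the compressed group and close to the 3.03 to 3.52% of the control group. In a further fit each library's length trend was removed through an offset. The length there was that of all exons of a gene merged (5779 bases for Cs), not of its principal transcript. Acod1, Idh3a, Idh3g and Ogdh were still called by edgeR, and Idh3b and Fh1 were called as well (adjusted p = 0.0299 and 0.0199). Cs was not called in that fit (edgeR adjusted p = 0.0956), and neither was Mdh2 (0.868). Suclg1 was not called there either, with a log2 fold change of -0.0031 (edgeR adjusted p = 0.986). Removing the length trend thus did not give the lower level of Suclg1 that leaving out compressed replicate 6 gave.

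**Figure D3:**
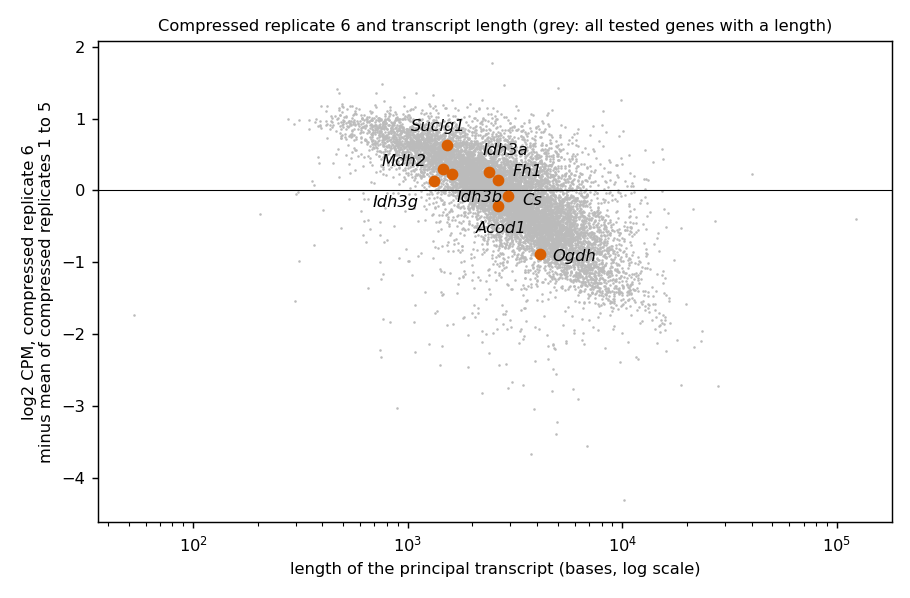
Log2 CPM of compressed replicate 6 minus the mean of compressed replicates 1 to 5, against the length of the principal transcript in bases on a log axis, for 11460 tested genes (grey) and the 9 members (orange). Short transcripts lay above 0 and long ones below it, with Suclg1 at 0.63 and Ogdh at -0.89.

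Together, the 8 cycle genes summed to 1708 to 1942 CPM in compressed samples (median 1845) and 1998 to 2051 CPM in control samples (median 2018). To compare levels between genes, CPM was divided by the length of the principal transcript in kilobases (CPM per kb). In control samples the order was Mdh2 (337), Cs (174), Idh3g (126), Idh3b (97.9), Acod1 (89.98), Suclg1 (79.7), Idh3a (72.6), Ogdh (60.6) and Fh1 (57.7), in mean CPM per kb. There the libraries of Acod1 (77.7 to 111 CPM per kb) overlapped those of Idh3b and Suclg1, its neighbours in the order. In compressed samples Acod1 came first at 613 CPM per kb, above Mdh2 at 338 CPM per kb, and their libraries did not overlap. The order below it was Cs (160), Idh3g (115), Idh3b (90.8), Suclg1 (77.5), Idh3a (56.2), Fh1 (52.9) and Ogdh (45.9), in mean CPM per kb, and the libraries of Idh3b overlapped those of Suclg1, those of Suclg1 also overlapped those of Idh3g, and those of Idh3a, Fh1 and Ogdh overlapped one another.

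The ratio of Acod1 to the enzymes on either side of aconitate was higher in compressed samples. The log2 ratio of Acod1 to Cs, in CPM, was 1.78 ± 0.16 in compressed samples and -1.12 ± 0.20 in control samples (SD, n = 6 each), a difference of 2.90 (exact permutation p = 0.00216, adjusted 0.00303). For Acod1 to Idh3a the log2 ratio was 3.57 ± 0.27 in compressed samples and 0.42 ± 0.24 in control samples, a difference of 3.15 (exact permutation p = 0.00216, adjusted 0.00303). Every compressed library was above every control library in these ratios, and the differences were 2.92 and 3.23 without compressed replicate 6. Acod1 by itself was higher, and Cs and Idh3a by themselves lower, without overlap. The separation of these ratios and their exact p follow from those levels and are not separate evidence.

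Other genes of the cycle and its surroundings were taken from 8 lists with 79 genes, of which 72 were tested, 15 were called higher and 20 lower, 48.6% in all beside 46.4% of all genes (24.5% higher and 21.9% lower). When compressed replicate 6 was left out, 22 were higher and 32 lower, beside 33.8% and 32.2% of all genes (66.0% in all). The same shares belong beside each list count below that leaves it out. Among 10 other subunits of cycle enzymes none was called higher and 3 were lower, and the list's median was -0.10 (log2 fold change). The called genes were Idh2, the NADP-dependent mitochondrial isocitrate dehydrogenase (log2 fold change -0.30), Suclg2, a beta subunit of succinyl-CoA ligase (-0.28), and Sdha, the flavoprotein of succinate dehydrogenase (-0.21, edgeR adjusted p = 0.016). Without compressed replicate 6, 6 of these 10 genes were lower.

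Of 13 tested genes for pyruvate entry, 4 were higher and 3 lower. Pdk1, a kinase that switches off pyruvate dehydrogenase, averaged 227 ± 21.9 CPM in compressed samples and 150 ± 4.71 CPM in control samples (SD, n = 6 each), a log2 fold change of 0.60 (edgeR adjusted p = 3.87e-06). Its relative Pdk2 had a log2 fold change of 0.82, at 2.07 CPM in compressed samples and 1.17 CPM in control samples. Pdp2, a phosphatase that switches the complex on, had a log2 fold change of -0.35. Pdp1, a phosphatase of the same list named here after its value was seen, went the other way. Its log2 fold change was 0.16 and not called (edgeR adjusted p = 0.0555), and 0.19 without compressed replicate 6 (edgeR adjusted p = 0.00467). Pdk3 was at 0.22 (edgeR adjusted p = 0.033) and was not called when control replicate 1, 2, 3, 4 or 6 or compressed replicate 1 or 2 was left out, with adjusted p of 0.0526 to 0.0684. Without compressed replicate 6, 7 of these 13 genes were higher and 5 lower.

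Of 8 genes for glutamine and amino acid entry, 6 were lower and none higher, and the list's median was -0.31 (log2 fold change). Without compressed replicate 6, 5 were lower and 1 was higher, Gpt2, named here after its value was seen (log2 fold change 0.12). Slc1a5, a glutamine transporter of the plasma membrane, averaged 337 ± 17.9 CPM in compressed samples and 485 ± 8.42 CPM in control samples (SD, n = 6 each), a log2 fold change of -0.53 (edgeR adjusted p = 4.19e-07). Glud1, which turns glutamate into 2-oxoglutarate, had a log2 fold change of -0.33 (edgeR adjusted p = 1.66e-05). Aldh4a1 and Prodh, of proline breakdown, had log2 fold changes of -0.48 and -0.52. The level of Prodh was low, 0.557 CPM in compressed samples and 0.795 CPM in control samples, and its call (edgeR adjusted p = 0.0494) was lost when control replicate 1, 3, 4 or 5 or compressed replicate 1, 2, 3 or 6 was left out, with adjusted p of 0.0539 to 0.108.

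The 13 cytosolic counterparts and shuttle genes were divided, with 3 higher and 3 lower, and 4 higher and 5 lower without compressed replicate 6. Me2, a malic enzyme of mitochondria that makes pyruvate from malate, had a log2 fold change of 0.68 (edgeR adjusted p = 7.56e-08) and Idh1, the cytosolic NADP-dependent isocitrate dehydrogenase, one of 0.46 (edgeR adjusted p = 2.42e-07). Slc25a10, the dicarboxylate carrier, and Got2, the mitochondrial aspartate aminotransferase, had log2 fold changes of -0.39 and -0.29. Idh1 averaged 208 ± 5.09 CPM in compressed samples and 151 ± 2.92 CPM in control samples (SD, n = 6 each), so its direction was opposite to that of Idh2, Idh3a and Idh3g. Among 9 genes for cofactor supply and assembly of succinate dehydrogenase, Lipt1, a lipoyl transferase, was the 1 called gene, at a log2 fold change of -0.44 (edgeR adjusted p = 0.000147), while 1 was higher and 4 were lower without compressed replicate 6.

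Of 7 genes for itaconate and succinate handling, 4 were tested and 2 were higher, with and without compressed replicate 6. Clybl, whose enzyme cleaves citramalyl-CoA in the breakdown of itaconate, had a log2 fold change of 0.43 (edgeR adjusted p = 0.000192), at 12.0 ± 1.16 CPM in compressed samples and 8.88 ± 0.502 CPM in control samples (SD, n = 6 each). Slc13a3, a plasma membrane carrier of dicarboxylates, had a log2 fold change of 3.20 (edgeR adjusted p = 6.89e-08). It was a rare transcript, at 1.32 to 2.13 CPM in compressed samples and 0.097 to 0.283 CPM in control samples, with 369 counts over the compressed libraries and 45 over the control libraries. The genes of the receptors Sucnr1 (6 counts, all in control samples) and Oxgr1 (2 counts, all in control samples), for succinate and for 2-oxoglutarate and itaconate, were too low to test.

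Of 8 tested genes of the list of Acod1 regulators, 5 were higher and 1 was lower, and the list's median was 0.23 (log2 fold change). The count was 5 higher and 3 lower without compressed replicate 6. Atf3, a stress-induced transcription factor, averaged 158 ± 11.3 CPM in compressed samples and 61.7 ± 4.4 CPM in control samples (SD, n = 6 each), a log2 fold change of 1.36 (edgeR adjusted p = 1.87e-09). Irf8, an interferon regulatory factor of myeloid cells, had a log2 fold change of 0.56, and Nfkb1, an NF-kB subunit, one of 0.49. Hif1a, the oxygen-sensitive subunit of the hypoxia-inducible factor, was at 0.25 (edgeR adjusted p = 0.0396) and stayed called only when compressed replicate 6 was the library left out, whereas leaving out any other single library gave adjusted p of 0.0636 to 0.0852. With all libraries it also missed the threshold with DESeq2 (adjusted p = 0.0625). The listed gene called lower was Irf1, named here after its value was seen, with 17.7 ± 0.986 CPM in compressed samples and 20.3 ± 1.46 CPM in control samples (SD, n = 6 each, log2 fold change -0.20, edgeR adjusted p = 0.0133).

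Of 7 tested regulators of mitochondrial enzyme genes, Myc, a transcription factor of growth and metabolism, was called higher, with a log2 fold change of 1.21 (edgeR adjusted p = 4.97e-09). Nrf1, an activator of nuclear genes for mitochondrial proteins, was called lower at -0.47, as were Tfam, which maintains mitochondrial DNA, at -0.44, and Gabpb1, a partner of the GABPA factor, at -0.27. Tfam averaged 42.6 ± 6.02 CPM in compressed samples and 57.8 ± 0.621 CPM in control samples (SD, n = 6 each). Ppargc1a had 7 counts in control samples and none in compressed samples and was not tested. Of the 7 tested genes, 2 were higher and 4 lower without compressed replicate 6.

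**Figure D4:**
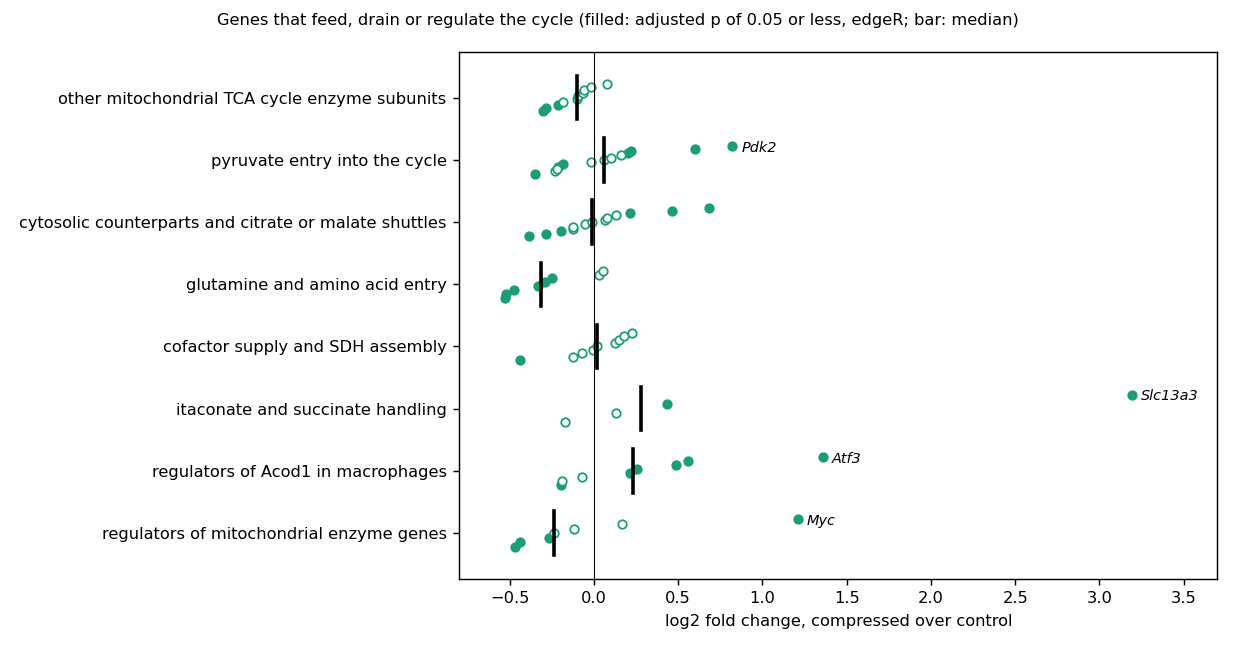
Log2 fold change, compressed over control, of the tested genes in 8 lists around the cycle (1 point a gene, filled where the edgeR adjusted p was 0.05 or less, bar at the list median). Slc13a3 (3.20), Atf3 (1.36), Myc (1.21) and Pdk2 (0.82) lay farthest to the right, and the list of glutamine and amino acid entry had the lowest median, -0.31.

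The genes whose log2 CPM followed that of Acod1 most closely over the 12 libraries included Lif, Acap1, Il10ra and Il1a, with Pearson r of 0.9978 to 0.9984 among 10633 genes searched. Lif, a cytokine of the interleukin-6 family, averaged 167 ± 28.1 CPM in compressed samples and 13.6 ± 1.79 CPM in control samples (SD, n = 6 each). Il1a, a cytokine of the interleukin-1 family, averaged 131 ± 26.9 CPM in compressed samples and 1.81 ± 0.596 CPM in control samples. Closest to Cs were Tkt, the transketolase of the pentose phosphate pathway, Vash2 and Sesn1, with r of 0.9662 to 0.9714. Closest to Idh3a were Hat1, a histone acetyltransferase, and Spc25 and Cenpq, which act at the kinetochore, with r of 0.9942 to 0.9954. Spc25 averaged 21.5 ± 4.01 CPM in compressed samples and 39.0 ± 2.48 CPM in control samples. These correlations run over 2 groups of libraries, share their depth and the difference between the groups, and are a description only.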

How the data were processed

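Messenger RNA of 12 samples was sequenced from directional libraries. Alignment by the authors used STAR 2.7.2 and, per the submitters' processing notes, GRCm39. The deposited table holds raw counts per Ensembl gene ID, and the counting program is not given in the sources used here. Symbols and lengths came from GENCODE M21 (GRCm38), which matched 51948 of 56941 IDs and 99.5% of counts. Counts were tested with edgeR 4.0.16 in R 4.3.3 (TMM, filterByExpr with a minimum count of 10, quasi-likelihood F test, condition alone), p adjusted over all 15001 tested genes. The standard error of an edgeR log2 fold change was back-calculated, as its absolute value divided by the square root of F. The study used DESeq2, run here as an alternative (1.42.0). CPM used TMM factors, and log2 CPM a prior count of 2. Total counts were 33460807 to 40463545 per library.

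Named were the 9 members, up to 4 called genes of each other list with the largest absolute log2 fold change, Sdha, and the genes most alike to Acod1 (5), Cs and Idh3a (3 each). Of the genes this rule takes, 2 are not reported here. Members and lists were chosen with earlier results of these data known. Alternatives were RLE factors, library size alone, DESeq2, no filter, a mean normalized count over 50, a replicate block, removal of the length trend, an adjusted p of 0.01, and leaving out each library.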

Additional observations from a re-analysis of the deposited data

Results flagged for a closer look

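Of 84 groups of 6 values examined, 16 held a library far from the other 5 by Dixon's test, which by chance marks about 1 in 20 groups, and in 12 of the 16 it was compressed replicate 6. Among the members, compressed replicate 6 was high for Idh3b (166.5 CPM, others 136 to 146 CPM) and Suclg1 (166.7 CPM, others 101 to 115 CPM) and low for Ogdh (110.8 CPM, others 198 to 214 CPM). Control replicate 1 was high for Ogdh, at 264.5 CPM. Among the other listed genes, compressed replicate 6 was low for Sdha (218.9 CPM), Pdk1 (186.1 CPM), Hif1a (151.7 CPM), Irf8 (107.8 CPM), Nfkb1 (190.3 CPM) and Nrf1 (25.29 CPM). It was high for Idh1 (217.9 CPM) and Aldh4a1 (16.32 CPM). Control replicate 2 was low for Clybl, at 7.92 CPM. In the log2 ratios, Ogdh over Suclg1 stood at -0.59 in compressed replicate 6 and at 1.16 in control replicate 1, and Idh3a over Idh3b stood at 0.22 in control replicate 4.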

How the results depend on the processing

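Acod1, Idh3a and Ogdh kept their direction under all alternatives, and their calls in each but an adjusted p of 0.01, which Ogdh missed. The log2 fold change of Acod1 ranged from 2.71 to 2.84. The 5 calls among the members became 3 with no filter on low counts and 2 at an adjusted p of 0.01, and the 4 lower calls became 2 and 1. Leaving out 1 library gave 4 to 8 members called, 3 to 7 of them lower, and 30 to 54 genes of the other lists, 19 to 32 of them lower, with the highest of each without compressed replicate 6. Cs lost its call with no filter (adjusted p = 0.112) and Idh3g likewise (0.0873). Fh1 was called with library size alone (0.00581), RLE factors (0.0367), DESeq2 (0.0104) and the length trend removed (0.0199), and Idh3b with library size alone (0.00939), DESeq2 (0.0229) and the length trend removed (0.0299). Hif1a lost its call with RLE factors (0.0503), library size alone (0.12), DESeq2 (0.0625), no filter (0.0663) and the replicate block (0.0838). The cause was not tested. Mdh2, at 0.00, changed sign with RLE factors (-0.0073), library size alone (-0.0615), DESeq2 (-0.0145), no filter (-0.0051) and the replicate block (-0.0033), and ranged from -0.0529 to 0.0338 when 1 library was left out. Suclg1 ranged from -0.17 to 0.00 (0.0016 without compressed replicate 5).

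Whether the replicate numbers pair the samples was not settled. Deviations of same-numbered libraries from their group means correlated at -0.115 to 0.04. Of 6 compressed libraries, 0 correlated best with the control of their own number. Compressed replicate 6, with its shift by transcript length, entered the mean from which every compressed deviation was taken. These correlations therefore cannot decide whether the samples were paired. With the replicate block, 3 members were called, 2 of them lower, without Cs (adjusted p = 0.084) and Idh3g (0.0699). The log2 ratio of Ogdh to Suclg1 differed by -0.37 (adjusted exact p = 0.0729 by sign flips of the 6 pairs), and by -0.44 to -0.12 when 1 library was left out. At this depth all members were far above the filter, and in control samples counting error was close to the whole spread for Suclg1, Idh3g and Fh1.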
